A study of Mus musculus with 7 samples.

Results

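The genes described here are 45 genes whose products act in DNA replication (S phase) or in cell division (mitosis), chosen by name from the 34745 genes of a deposited expression table. All 45 names matched 1 row each. They were divided by known role into 19 S phase genes and 26 mitosis genes. RNA was sequenced from naive CD4 T cells, helper T cells that have not met their antigen, taken from the spleen of male C57BL/6 mice at 8 weeks of age. The mutant group, labelled PIK3CD GOF (heterozygous), held 4 libraries, and the littermate wild-type group (WT) held 3. GOF stands for gain of function of the gene for p110delta, the catalytic subunit of the leukocyte phosphoinositide 3-kinase; the labels do not name the amino acid change. No mouse in either group was treated, all were kept free of specific pathogens, and the cells were isolated by negative selection and not cultured. Nothing in the labels says that any mice were pooled.

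A naive T cell rests outside the cell cycle. To divide, it loads the MCM helicase onto replication origins with the help of CDC6 and CDT1, makes nucleotides and copies its DNA, then enters mitosis under CDK1 with B-type cyclins and leaves it when the anaphase-promoting complex destroys them. Genes for replication are mostly switched on by E2F factors at the G1/S border, and genes for mitosis later, by B-MYB and FOXM1, through a promoter element called CHR that often lies near CCAAT boxes. In resting cells a repressor complex named DREAM holds both sets down. PI3K signalling, through AKT, is known to favour entry into the cycle in stimulated T cells.

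Promoter sequences show these elements in the members. RefSeq windows on GRCm38.p6, the assembly also called mm10, ran from 250 bases before to 50 after the start of each gene and were found for 37 of the 45 members. The members with an E2F or CHR match and the smallest p in their set are printed here, 5′ to 3′, as examples of such windows. For E2f2 (chr4:136172024-136172323 on the plus strand) and Rrm2 (chr12:24708004-24708303 on the plus strand) the capitals mark E2F matches. For Top2a (chr11:99024140-99024439 on the minus strand) and Kif11 (chr19:37376132-37376431 on the plus strand) they mark CHR and CCAAT matches.
E2f2: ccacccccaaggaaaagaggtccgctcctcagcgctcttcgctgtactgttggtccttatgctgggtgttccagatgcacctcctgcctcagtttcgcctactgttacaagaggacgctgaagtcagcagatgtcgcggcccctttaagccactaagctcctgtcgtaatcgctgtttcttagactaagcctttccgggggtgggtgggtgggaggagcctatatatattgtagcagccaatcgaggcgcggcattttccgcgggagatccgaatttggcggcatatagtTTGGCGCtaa
Rrm2: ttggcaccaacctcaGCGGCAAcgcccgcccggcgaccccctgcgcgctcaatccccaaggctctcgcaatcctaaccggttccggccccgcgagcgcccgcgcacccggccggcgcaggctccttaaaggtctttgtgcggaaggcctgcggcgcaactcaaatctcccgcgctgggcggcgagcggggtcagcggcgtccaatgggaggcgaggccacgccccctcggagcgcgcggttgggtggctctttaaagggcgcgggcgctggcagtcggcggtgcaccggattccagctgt
Top2a: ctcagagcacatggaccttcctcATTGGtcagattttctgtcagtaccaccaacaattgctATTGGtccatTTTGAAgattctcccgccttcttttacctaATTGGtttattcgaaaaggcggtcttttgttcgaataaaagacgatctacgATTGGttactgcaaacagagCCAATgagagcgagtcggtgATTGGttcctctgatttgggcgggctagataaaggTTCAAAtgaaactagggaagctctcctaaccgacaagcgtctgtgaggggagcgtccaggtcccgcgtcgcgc
Kif11: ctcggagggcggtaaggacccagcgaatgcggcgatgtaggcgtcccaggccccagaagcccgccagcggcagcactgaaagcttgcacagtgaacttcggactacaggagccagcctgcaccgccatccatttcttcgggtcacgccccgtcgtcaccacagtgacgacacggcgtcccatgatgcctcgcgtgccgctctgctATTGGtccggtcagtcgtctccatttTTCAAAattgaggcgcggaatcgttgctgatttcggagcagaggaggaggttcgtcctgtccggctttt
The E2F motif was searched as TTGGCGC or as the variants TTCCCGC plus TTGCCGC plus TTCGCGC, CHR as TTTGAA or its variant TTTAAA, and the CCAAT box by its own letters, all on both strands. Matches to the E2F motif can overlap one another. An E2F match was present in 10 of 16 S phase members and 3 of 21 mitosis members with a window, and in 10.9% of all 27025 genes with a window and 19.5% of those tested for expression. A CHR match was present in 17 of 21 mitosis members and 7 of 16 S phase members, against 30.6% of all genes and 22.5% of those tested. CHR and CCAAT matches occurred together in 16 of 21 mitosis members and 5 of 16 S phase members, against 12.2% of all genes and 9.18% of the genes tested for expression. In Top2a the window held 2 CHR and 6 CCAAT matches, the CHR match nearest the start lying 23 bases before it. In Kif11 a CHR match lay 19 bases and a CCAAT match 45 bases before the start. The Rrm2 window also held a CHR and a CCAAT match and the E2f2 window a CCAAT match, which are not in capitals, and a second E2f2 window held a CHR match. A match is a run of letters and was not tested for binding.

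The libraries held 14497957 to 16293539 counts. Cd4 was at 228 ± 9.84 FPKM in GOF and 148 ± 16.9 FPKM in WT (SD, n = 4 and 3), and all 14 listed CD4 T cell markers were present in every library. FPKM is the count per kilobase of gene length and per 1000000 counts, and CPM, used below, the count per 1000000 after TMM scaling of the totals. Of the 14 markers 7 were higher and 3 lower in GOF, with Il7r and Lef1 among the last. Pik3cd mRNA was at 652 ± 129 CPM in GOF and 1136 ± 325 CPM in WT; counts per gene do not show the allele. Markers of several other cell types were higher in GOF and highest in GOF replicates 1 and 3, so results are also given without those libraries. The summed level of 17 markers of neutrophils and their precursors was 256, 72.0, 258 and 90.5 CPM in the GOF libraries, against 12.6, 2.34 and 1.60 CPM in the WT libraries, and that of 19 erythroid markers 164, 97.3, 174 and 97.1 CPM in the GOF libraries, against 80.7, 99.9 and 85.3 CPM in the WT libraries. Of the 13 neutrophil and 12 erythroid markers that could be tested, 11 and 6 were higher in GOF and 0 lower. Over all genes tested 16.8% were higher and 14.5% lower. The median WT level of the listed neutrophil and erythroid markers was 0.287 and 0.604 CPM, under the filter's cutoff of 0.666 CPM. Markers tested only through their GOF levels could hardly be called lower and are no support for these counts. Most of each WT erythroid sum was Tfrc, the transferrin receptor, which is also found on other dividing cells. Without it, left out after its values were seen, the erythroid sum was 119, 39.0, 124 and 43.1 CPM in the GOF libraries, against 26.0, 37.7 and 21.0 CPM in the WT libraries.

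In GOF cells a larger share of the mitosis genes than of the S phase genes rose, with topoisomerase II alpha and Ki-67 among the first and E2f2 and Rrm2 among the second. Genes were compared with the quasi-likelihood test of edgeR, and every count below uses its Benjamini-Hochberg adjusted p under 0.05 over all 12668 genes tested. All 45 members passed the filter on low counts, 11 mitosis genes and 1 S phase gene only through their GOF levels. Of the 26 mitosis genes 20 were higher in GOF and 1 lower, with a median log2 fold change (GOF over WT) of 2.24. Of the 19 S phase genes 7 were higher and 2 lower, with a median of 0.35. Among genes that passed the filter in WT alone, 9 of 15 mitosis genes were higher and 1 lower, with a median of 1.09. For the S phase genes 6 of 18 were then higher and 2 lower, with a median of 0.30, against 13.6% higher among all such genes. Over all genes tested 16.8% were higher and 14.5% lower, and the median was 0.01. Scaling by library totals alone set 63.9% of all calls in the higher direction, against 53.7% with TMM. Every GOF library lay above every WT library for 20 mitosis and 9 S phase genes, where 21.5% of all genes did so. Every GOF library lay below every WT library for 1 mitosis and 2 S phase genes, against 18.2% of all genes. In bulk RNA a larger number of dividing cells and more transcript per cell cannot be told apart.

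**Figure D1:**
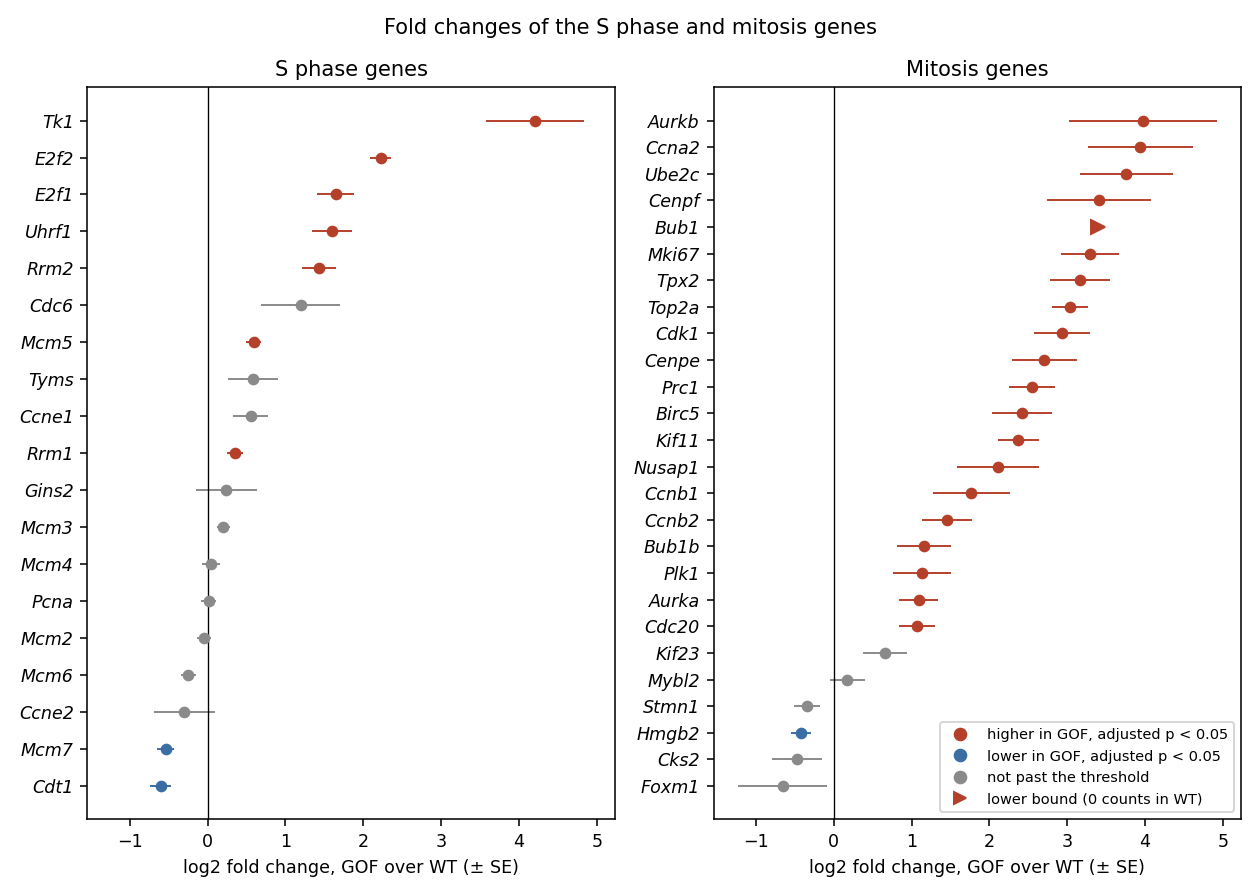
Log2 fold change of GOF over WT for each of the 19 S phase genes (left) and 26 mitosis genes (right), with the SE as bars and colour for the edgeR call; Bub1, with 0 counts in WT, stands at its lower bound. The 20 mitosis genes that were higher form the upper part of the right panel, while Pcna, Mcm2 and Mcm4 sit near 0 on the left.

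At the entry to S phase, both E2F factors rose and the E-type cyclins did not pass the test. E2f2 (ENSMUSG00000018983, mm10 chromosome 4, 136172394 to 136196057), an E2F factor that in mouse T cells is known to restrain proliferation, was at 69.5, 66.4, 69.9 and 58.3 CPM in the GOF libraries, against 11.7, 14.5 and 16.2 CPM in the WT libraries. Its GOF libraries were far above the WT libraries, with no overlap (log2 fold change 2.22, SE 0.14, adjusted p = 9.98e-06). E2f1 (ENSMUSG00000027490, mm10 chromosome 2, 154559407 to 154569892), an activating E2F factor, was at 6.70, 5.05, 7.10 and 6.69 CPM in the GOF libraries, against 2.16, 1.72 and 2.23 CPM in the WT libraries. The GOF values again lay above all WT values (log2 fold change 1.65, SE 0.24, adjusted p = 0.00112). Ccne1, cyclin E1, the partner of CDK2 at the G1/S border, was at 10.6, 8.81, 11.3 and 7.52 CPM in the GOF libraries, against 7.18, 4.96 and 7.45 CPM in the WT libraries. Its groups did not overlap, the highest WT library lying just under the lowest GOF library, and the test was not passed (log2 fold change 0.55, SE 0.22, adjusted p = 0.0906). Ccne2, cyclin E2, overlapped between the groups at 1.45 ± 0.119 CPM in GOF and 1.79 ± 0.745 CPM in WT (SD, n = 4 and 3; adjusted p = 0.597).

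Among the genes that license and open replication origins, 1 rose and 2 fell of 9, against 16.8% and 14.5% of all genes tested. Levels ran from Cdc6 and Gins2, at a few CPM, to the abundant helicase genes. Over Mcm2 to Mcm7, the 6 subunits of the replicative helicase, the summed level was 451, 464, 455 and 460.1 CPM in the GOF libraries, against 482, 497 and 473 CPM in the WT libraries. The GOF sums were slightly below the WT sums and did not overlap them, but the 6 genes did not move alike. Of them 1 was higher, 1 lower and 4 not called, with a median log2 fold change of -0.003. Mcm7, the gene called lower, had the largest fall, with means of 69.7 CPM in GOF and 101 CPM in WT. By FPKM, which allows genes to be compared, 8 of the 11 most abundant members in WT were these MCM genes, Cdt1 and Pcna, among which Cdt1 was at 32.6 FPKM and Pcna at 31.2 FPKM. Mcm2 (mm10 chromosome 6, 88883474 to 88898780) was at 79.2, 90.4, 81.7 and 87.4 CPM in the GOF libraries, against 83.9, 86.8 and 91.6 CPM in the WT libraries. The groups overlapped, GOF replicates 1 and 3 lying below the WT libraries and WT replicate 3 above the GOF libraries (log2 fold change -0.05, SE 0.09, adjusted p = 0.722). Mcm5 (ENSMUSG00000005410, mm10 chromosome 8, 75109528 to 75128439) was at 45.9, 48.0, 44.8 and 50.4 CPM in the GOF libraries, against 31.2, 31.5 and 31.5 CPM in the WT libraries. It was the 1 helicase gene that rose, with no overlap and nearly equal WT values (log2 fold change 0.59, SE 0.09, adjusted p = 0.00152). Mcm7 (ENSMUSG00000029730, mm10 chromosome 5, 138164583 to 138172422) was at 74.6, 64.4, 79.0 and 61.0 CPM in the GOF libraries, against 99.5, 104 and 101 CPM in the WT libraries. Its highest GOF library was below its lowest WT library (log2 fold change -0.54, SE 0.11, adjusted p = 0.00528). Counts of Mcm7 share its locus with Cops6 and Ap4m1 on the opposite strand, and whether counting used the strand is not stated.

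Cdt1, which loads the helicase, also fell. It was at 47.1, 51.2, 45.8 and 49.8 CPM in the GOF libraries, against 81.0, 83.4 and 56.7 CPM in the WT libraries, the lowest WT library, replicate 3, standing well below the other two but above all GOF libraries (log2 fold change -0.61, SE 0.14, adjusted p = 0.0101). Without GOF replicates 1 and 3 its call was lost (log2 fold change -0.55, adjusted p = 0.0859). Cdc6, the other loader, was at 2.31 ± 1.35 CPM in GOF and 1.00 ± 0.306 CPM in WT (SD, n = 4 and 3), with GOF replicate 3 highest at 4.27 CPM, and did not pass (adjusted p = 0.105). Mcm3 and Mcm6 had adjusted p-values of 0.0958 and 0.0919, and Mcm4 and Gins2, a subunit of the GINS complex of the fork, 0.814 and 0.675.

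Among genes of nucleotide supply and the replication fork, 4 of 6 rose, against 16.8% of all genes tested. Of these, Tk1 passed the filter on low counts only through its GOF levels and is no support for this count. Tk1 (ENSMUSG00000025574, mm10 chromosome 11, 117815526 to 117826092), thymidine kinase of dividing cells, was at 3.84, 3.83, 6.44 and 3.67 CPM in the GOF libraries, against 0.359, 0.344 and 0 CPM in the WT libraries. WT counts were 5, 5 and 0, so the size of its fold change is uncertain, and no GOF library overlapped WT (log2 fold change 4.20, SE 0.63, adjusted p = 0.0013). Rrm2, the regulated small subunit of ribonucleotide reductase, was at 13.9, 13.3, 15.1 and 10.5 CPM in the GOF libraries, against 4.88, 6.06 and 3.76 CPM in the WT libraries. The groups did not overlap (log2 fold change 1.43, SE 0.22, adjusted p = 0.00137). Uhrf1, which carries DNA methylation through replication, was at 13.1, 10.1, 15.3 and 10.9 CPM in the GOF libraries, against 2.95, 5.51 and 3.76 CPM in the WT libraries. Its GOF replicates 1 and 3 were higher than 2 and 4, and all were above WT (log2 fold change 1.60, SE 0.26, adjusted p = 0.00191).

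The large reductase subunit, Rrm1, moved less. It was at 49.8, 43.9, 46.4 and 40.9 CPM in the GOF libraries, against 33.4, 34.8 and 38.1 CPM in the WT libraries, with no overlap but a gap smaller than the range within GOF (log2 fold change 0.35, SE 0.11, adjusted p = 0.0326). Its call was lost in 6 of 17 alternatives, among them the removal of GOF replicates 1 and 3 (log2 fold change 0.25, adjusted p = 0.27). Pcna, the sliding clamp of DNA polymerase and a usual marker of proliferation, was at 108, 121, 106 and 120.3 CPM in the GOF libraries, against 125, 104 and 109.5 CPM in the WT libraries. The values overlapped fully (log2 fold change 0.01, SE 0.10, adjusted p = 0.929). Its pseudogene Pcna-ps2, whose sequence is close to that of Pcna, had 68.0, 69.6, 65.3 and 73.1 CPM in the GOF libraries, against 51.9, 45.8 and 55.2 CPM in the WT libraries. Adding those counts to Pcna gave a log2 fold change of 0.16 and an adjusted p of 0.205. Tyms, thymidylate synthase, was at 5.58 ± 0.511 CPM in GOF and 3.74 ± 1.81 CPM in WT (SD, n = 4 and 3; adjusted p = 0.205).

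**Figure D2:**
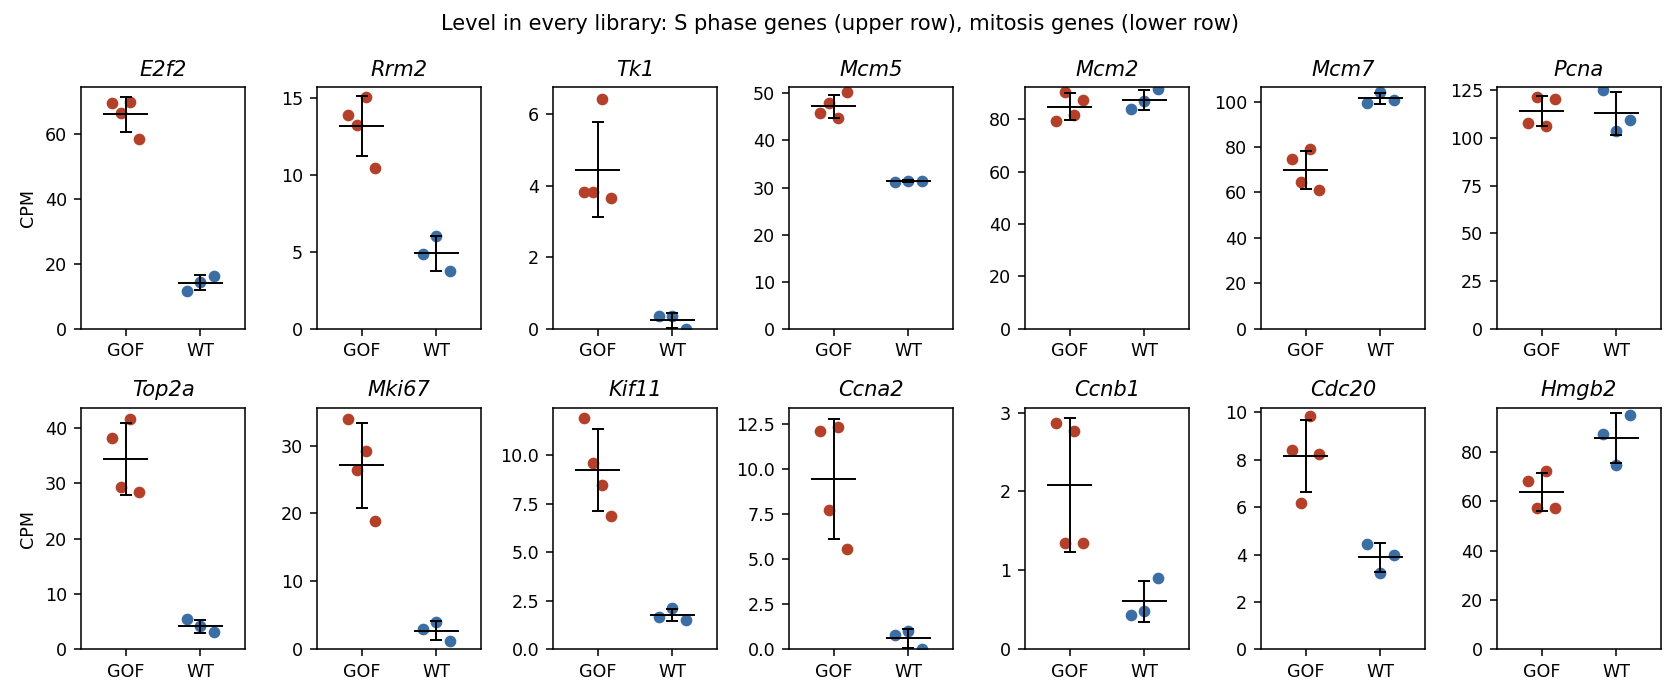
Level in CPM of 7 S phase genes (upper row) and 7 mitosis genes (lower row) in each of the 4 GOF and 3 WT libraries; points are libraries, lines the mean and bars the SD, and each y axis starts at 0. E2f2, Top2a and Mki67 separate widely between the groups, whereas Mcm2 and Pcna overlap.

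At the centre of the mitotic set stand CDK1 and its cyclins, and 4 of these 5 genes rose, against 16.8% of all genes tested. Cdk1, Ccna2 and Ccnb1 passed the filter on low counts only through their GOF levels and are no support for this count. Cdk1 (ENSMUSG00000019942, mm10 chromosome 10, 69336635 to 69352938), the kinase that drives entry into mitosis, was at 4.36, 3.07, 3.79 and 2.57 CPM in the GOF libraries, against 0.431, 0.413 and 0.487 CPM in the WT libraries. The WT values were nearly equal and far below all GOF values (log2 fold change 2.93, SE 0.36, adjusted p = 0.000458). Ccnb1, cyclin B1, was at 2.86, 1.34, 2.77 and 1.35 CPM in the GOF libraries, against 0.431, 0.482 and 0.905 CPM in the WT libraries. GOF replicates 1 and 3 were the high ones, 2 and 4 the low ones, and none overlapped WT (log2 fold change 1.77, SE 0.49, adjusted p = 0.0242). Its call was lost in 6 of 16 alternatives, among them the removal of WT replicate 1 (adjusted p = 0.0711), WT replicate 2 (0.0719), GOF replicate 1 (0.0656) or GOF replicate 3 (0.0624). Ccna2, cyclin A2, which serves both replication and mitosis, had 9.44 ± 3.33 CPM in GOF and 0.608 ± 0.540 CPM in WT (SD, n = 4 and 3; log2 fold change 3.94, SE 0.68, adjusted p = 0.00257). Ccnb2, cyclin B2, had 5.39 ± 1.83 CPM in GOF and 1.96 ± 0.151 CPM in WT (log2 fold change 1.45, SE 0.32, adjusted p = 0.00915). Cks2, a small protein that binds CDK1, did not pass and overlapped between the groups at 2.91 ± 0.459 CPM in GOF and 4.04 ± 1.61 CPM in WT (SD, n = 4 and 3; adjusted p = 0.291).

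Of 3 genes for chromosome proteins 2 rose and 1 fell, against 16.8% and 14.5% of all genes tested. Top2a (ENSMUSG00000020914, mm10 chromosome 11, 98992943 to 99024189), topoisomerase II alpha, which untangles chromosomes, was at 38.2, 29.4, 41.7 and 28.4 CPM in the GOF libraries, against 5.39, 4.13 and 3.06 CPM in the WT libraries. Every GOF library exceeded every WT library by more than the whole range of either group (log2 fold change 3.04, SE 0.24, adjusted p = 3.17e-05). Mki67 (ENSMUSG00000031004, mm10 chromosome 7, 135689788 to 135716379), which encodes the Ki-67 antigen that coats mitotic chromosomes, was at 33.9, 26.4, 29.2 and 18.9 CPM in the GOF libraries, against 3.02, 4.06 and 1.18 CPM in the WT libraries. GOF replicate 4 was lowest in its group and still above all WT libraries (log2 fold change 3.29, SE 0.38, adjusted p = 0.00028). Hmgb2, a chromatin protein of the HMG-box family, fell, at 64.0 ± 7.73 CPM in GOF and 85.8 ± 10.2 CPM in WT (SD, n = 4 and 3; log2 fold change -0.42, SE 0.12, adjusted p = 0.0302). It was the 1 mitosis gene called lower, and its call was lost in 9 of 17 alternatives, with scaling by library totals alone and in limma among them.

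All 6 kinases and checkpoint genes rose, against 16.8% of all genes tested. Bub1, Birc5 and Aurkb passed the filter on low counts only through their GOF levels and are no support for this count. Bub1 (ENSMUSG00000027379, mm10 chromosome 2, 127801122 to 127831865), a kinase of the spindle checkpoint, was at 2.41, 1.66, 2.04 and 2.70 CPM in the GOF libraries, against 0, 0 and 0 CPM in the WT libraries. No WT library held a count, and the GOF mean was at least 10.5-fold higher when 3 counts are set in each WT library (adjusted p = 0.00053). Birc5, survivin, a subunit of the chromosomal passenger complex, was at 5.08, 4.98, 7.58 and 3.86 CPM in the GOF libraries, against 0.647, 1.52 and 0.836 CPM in the WT libraries. The groups did not overlap (log2 fold change 2.42, SE 0.39, adjusted p = 0.00184). Aurkb, Aurora B, the kinase of that complex, had 3.40 ± 1.72 CPM in GOF and 0.207 ± 0.358 CPM in WT (SD, n = 4 and 3; log2 fold change 3.97, SE 0.95, adjusted p = 0.0126), and its 9 WT counts all lay in WT replicate 2. Aurka, Aurora A, which acts at spindle poles, had 5.23 ± 0.773 CPM in GOF and 2.45 ± 0.417 CPM in WT (SD, n = 4 and 3; log2 fold change 1.09, SE 0.25, adjusted p = 0.0098). Bub1b and Plk1, a checkpoint protein and the Polo-like kinase of mitotic entry, passed narrowly with log2 fold changes of 1.15 and 1.13 (adjusted p = 0.0326 and 0.0457), and lost their calls in 6 of 16 and 7 of 17 alternatives.

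Both partners of the anaphase-promoting complex rose as well, though Ube2c passed the filter on low counts only through its GOF levels. Ube2c, its ubiquitin-conjugating enzyme, was at 6.57, 3.00, 6.44 and 4.57 CPM in the GOF libraries, against 0.287, 0.758 and 0.0696 CPM in the WT libraries. The 3 WT libraries held 4, 11 and 1 counts, all below every GOF library (log2 fold change 3.76, SE 0.60, adjusted p = 0.00178). Cdc20, its activator, had 8.17 ± 1.51 CPM in GOF and 3.89 ± 0.613 CPM in WT (SD, n = 4 and 3; log2 fold change 1.07, SE 0.23, adjusted p = 0.00727).

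Of 8 spindle and kinetochore genes 6 rose, against 16.8% of all genes tested. Tpx2, Cenpe, Cenpf and Nusap1 passed the filter on low counts only through their GOF levels and are no support for this count. Kif11 (ENSMUSG00000012443, mm10 chromosome 19, 37376403 to 37421859), the kinesin that pushes spindle poles apart, was at 11.9, 9.58, 8.48 and 6.88 CPM in the GOF libraries, against 1.65, 2.13 and 1.53 CPM in the WT libraries. GOF replicate 4 was lowest in its group, with no overlap (log2 fold change 2.37, SE 0.27, adjusted p = 0.000259). Prc1, which bundles microtubules at the spindle midzone, was at 9.24, 6.39, 7.70 and 5.72 CPM in the GOF libraries, against 1.01, 1.65 and 1.04 CPM in the WT libraries. No overlap was seen (log2 fold change 2.55, SE 0.30, adjusted p = 0.000344), though Rccd1 lies over part of it on the opposite strand. Tpx2, the activator of Aurora A on the spindle, was at 6.51, 4.15, 6.62 and 3.92 CPM in the GOF libraries, against 0.431, 0.826 and 0.487 CPM in the WT libraries. GOF replicates 1 and 3 were the higher ones and all were above WT (log2 fold change 3.17, SE 0.38, adjusted p = 0.000403). Cenpe, the kinesin of kinetochores, was at 6.18, 5.56, 4.57 and 2.83 CPM in the GOF libraries, against 1.01, 0.413 and 0.766 CPM in the WT libraries. GOF replicate 4 was the lowest of its group and lay above WT (log2 fold change 2.71, SE 0.42, adjusted p = 0.00149). Cenpf, a kinetochore protein, and Nusap1, a microtubule-binding spindle protein, had log2 fold changes of 3.41 and 2.11 (adjusted p = 0.00488 and 0.0146). Kif23, a kinesin of the midzone, and Stmn1, stathmin, which takes microtubules apart, did not pass (adjusted p = 0.107 and 0.153).

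The transcription factors of the mitotic program did not pass the test. Foxm1 was at 2.21, 2.81, 3.67 and 8.10 CPM in the GOF libraries, against 11.6, 6.20 and 2.16 CPM in the WT libraries. Its values spread widely in both groups and overlapped, with WT replicate 1 highest and WT replicate 3 lowest of all 7 libraries (log2 fold change -0.66, SE 0.58, adjusted p = 0.421). Mybl2, which encodes B-MYB, had 5.46 ± 1.02 CPM in GOF and 4.83 ± 0.267 CPM in WT (SD, n = 4 and 3; log2 fold change 0.18, SE 0.22, adjusted p = 0.586).

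The 2 sets differ in level, which touches their comparison. Of the 20 mitosis genes that rose, 10 averaged under 1 CPM in WT, and 4 had 0 counts in at least 1 WT library. In 11 of the 26 mitosis genes and 1 of the 19 S phase genes the WT libraries alone would not have passed the filter on low counts, and all of these were called higher; of the 1499 such genes among all tested, 40.8% were. These genes were tested because of their GOF levels and are no support for the count. Of the 15 other mitosis genes 9 were higher and 1 lower, with a median log2 fold change of 1.09. Of the 18 other S phase genes 6 were higher and 2 lower, with a median of 0.30. Over all genes that passed in WT alone 13.6% were higher, and their median was -0.04. With a mean under 10 CPM over the 7 libraries, 18 of 22 mitosis genes and 4 of 9 S phase genes were higher, against 23.9% of all genes at that level. At 10 CPM or more, 2 of 4 mitosis genes (Top2a and Mki67) and 3 of 10 S phase genes (E2f2, Mcm5 and Rrm1) were higher, against 13.5% of all genes. The difference between the sets was not tested.

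**Figure D3:**
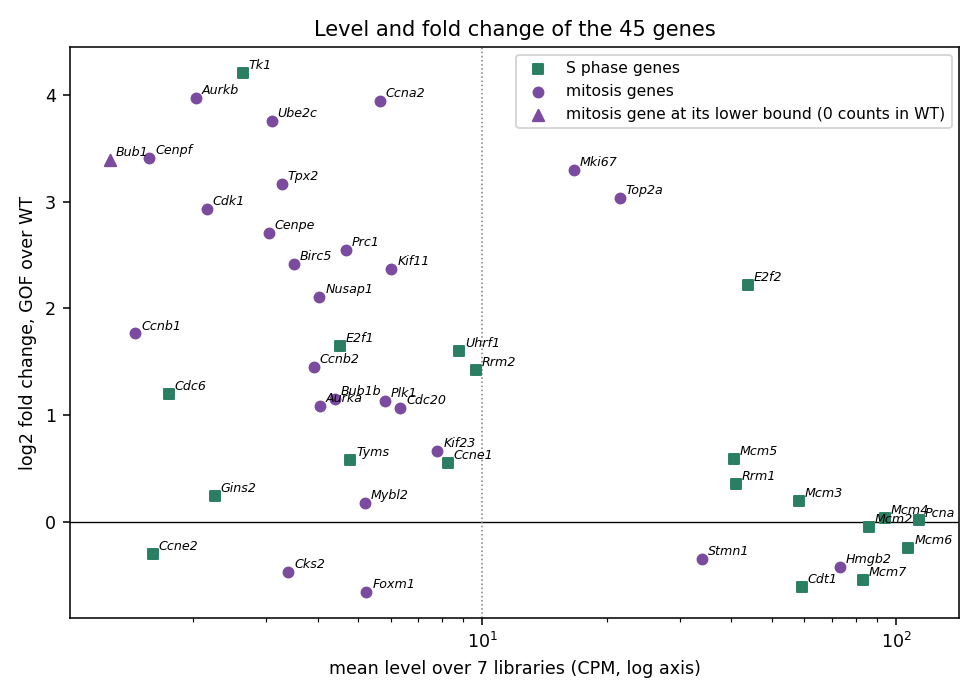
Mean level over the 7 libraries in CPM (x, log axis) against the log2 fold change of GOF over WT (y) for the 45 genes, squares for S phase and circles for mitosis genes, with Bub1 as a triangle at its lower bound and a dotted line at 10 CPM. Mitosis genes crowd the upper left, and at the right the MCM genes other than Mcm5, with Pcna, Cdt1, Hmgb2 and Stmn1, lie around or below 0.

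Library by library, the mitosis genes summed to 314, 235, 317 and 238 CPM in the GOF libraries, against 188, 157 and 183 CPM in the WT libraries. The sums did not overlap, and GOF replicates 1 and 3 were above 2 and 4. Hmgb2 and Stmn1 made up most of the WT sums. Without these genes, left out after their values were seen, the other 24 mitosis genes summed to 213, 154, 211 and 149 CPM in the GOF libraries, against 61.6, 51.6 and 42.3 CPM in the WT libraries. The lowest GOF library, replicate 4, was then far above the highest WT library, replicate 1. The S phase genes summed to 785, 798, 793 and 779 CPM in the GOF libraries, against 761, 761 and 717 CPM in the WT libraries, a small difference with no overlap. The mean sums were 789 CPM in GOF and 746 CPM in WT. E2f2 alone, with means of 66.0 CPM in GOF and 14.2 CPM in WT, differed by more than these sums did. As a share of the S phase sum, all 26 mitosis genes came to 40.0%, 29.5%, 40.0% and 30.5% in the GOF libraries, against 24.7%, 20.7% and 25.6% in the WT libraries. The 24 genes came to 27.1%, 19.3%, 26.6% and 19.1% in the GOF libraries, against 8.09%, 6.78% and 5.90% in the WT libraries. Sums over named genes are descriptions and were not tested.

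**Figure D4:**
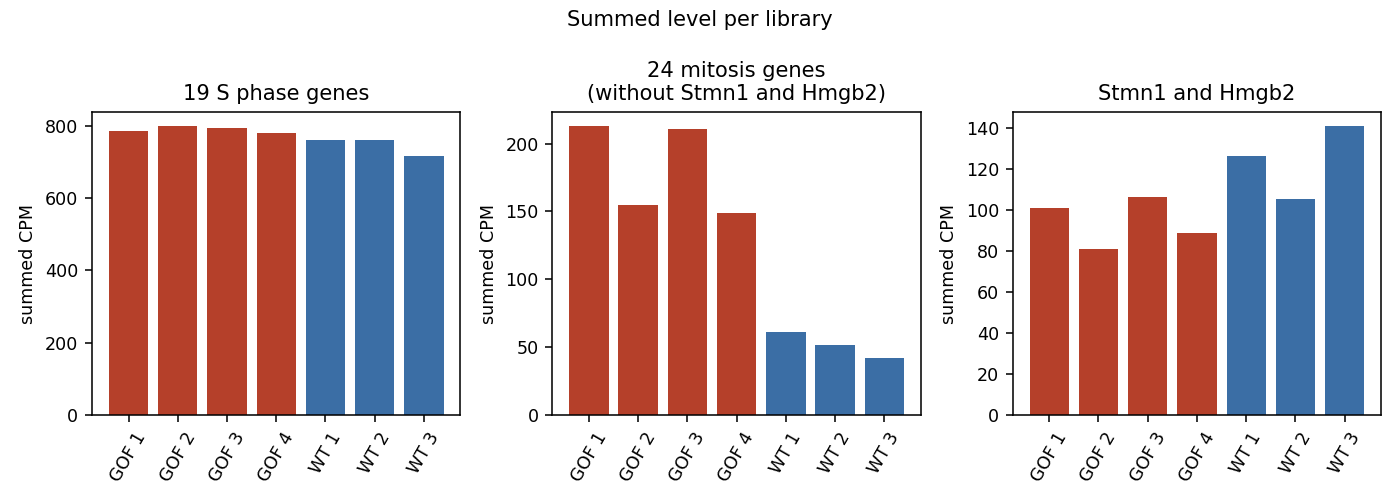
Summed CPM in each of the 4 GOF and 3 WT libraries for the 19 S phase genes (left), 24 mitosis genes (middle) and Stmn1 with Hmgb2 (right); bars start at 0. The middle panel, which leaves out Stmn1 and Hmgb2 after their values were seen, separates the groups. All 26 mitosis genes summed to 235 to 317 CPM in GOF and 157 to 188 CPM in WT. The left panel, from which no gene was left out, hardly separates the groups, and in the right one 3 of 4 GOF bars lie below all WT bars.

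Without GOF replicates 1 and 3, 12 of the 20 mitosis genes kept their higher call, as did 6 of the 7 S phase genes. All 20 and all 7 kept the direction. In that fit 12 of 26 mitosis genes and 6 of 19 S phase genes were higher, against 8.53% of all genes. Of the 12, Tpx2, Cdk1, Bub1, Cenpe, Ube2c, Birc5, Ccna2 and Cenpf had, with all libraries, passed the filter only through their GOF levels. The same held for Tk1 of the S phase genes, and these genes are no support for the counts. Of the 15 mitosis genes that passed in WT alone, Top2a, Kif11, Mki67 and Prc1 kept their call. Of the 18 such S phase genes E2f2, E2f1, Rrm2, Mcm5 and Uhrf1 did. Over all genes, higher calls numbered 1074 in that fit and 2130 with all libraries. For Mki67 the log2 fold change was then 3.03 (adjusted p = 0.00423), for Top2a 2.77 (adjusted p = 0.000742) and for E2f2 2.13 (adjusted p = 0.000526). The 8 mitosis genes whose call was lost were Aurka, Aurkb, Bub1b, Ccnb1, Ccnb2, Cdc20, Nusap1 and Plk1, with 2 GOF libraries left in the fit. Their log2 fold changes were then 1.16 for Aurka, 0.74 for Plk1, 1.13 for Ccnb1 and 3.19 for Aurkb. Without GOF replicates 2 and 4 instead, which also leaves 2 GOF libraries, 19 mitosis and 7 S phase genes were higher, against 13.6% of all genes in that fit. In 19 of 26 mitosis genes and 11 of 19 S phase genes GOF replicates 1 and 3 were both above 2 and 4, against only 25.3% of all genes tested.

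Marker genes of other spleen cells, some of them dividing cells, were higher in the same libraries as the mitosis genes. Slc4a1, the band 3 protein of red blood cells and their precursors, had 219, 12, 218 and 11 counts in the GOF libraries, against 0, 0 and 0 in the WT libraries. Elane, neutrophil elastase of immature granulocytes, had 31, 5, 46 and 0 counts in the GOF libraries, against 0, 3 and 0 in the WT libraries. Of the tested markers, 10 of 12 erythroid and 12 of 13 neutrophil genes were higher in GOF replicates 1 and 3 than in 2 and 4, against 25.3% of all genes tested. In GOF replicates 2 and 4 the neutrophil sums given above and the macrophage sums were still above every WT library. For the lists that follow, the share over all genes tested was 16.8% higher and 14.5% lower, and a marker near 0 in WT could hardly be called lower. Of 13 B cell markers 8 were higher and 0 lower (816 to 1436 CPM in GOF and 385 to 530.3 CPM in WT in sum). Of 7 tested plasma cell markers 3 were higher and 1 lower (152 to 202 CPM in GOF and 75.3 to 149 CPM in WT), of 15 macrophage and monocyte markers 14 and 0 (195 to 576 CPM in GOF and 49.9 to 92.5 CPM in WT), and of 11 NK and CD8 T cell markers 9 and 0 (127 to 184 CPM in GOF and 61.3 to 78.4 CPM in WT). Of 5 tested germinal centre B cell markers 1 was higher and 1 lower (85.5 to 90.7 CPM in GOF and 52.9 to 63.2 CPM in WT); Gcsam and Rgs13, markers of that state, had 0 counts in WT and at most 13 in a GOF library. Of 12 markers of activated and memory T cells 9 were higher and 3 lower, at 767, 815, 767 and 811 CPM in the GOF libraries, against 403, 392 and 304 CPM in the WT libraries. In that last list the sums of GOF replicates 1 and 3 were below those of 2 and 4. The part of any of these cells in the levels of the mitosis genes was not tested.

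**Figure D5:**
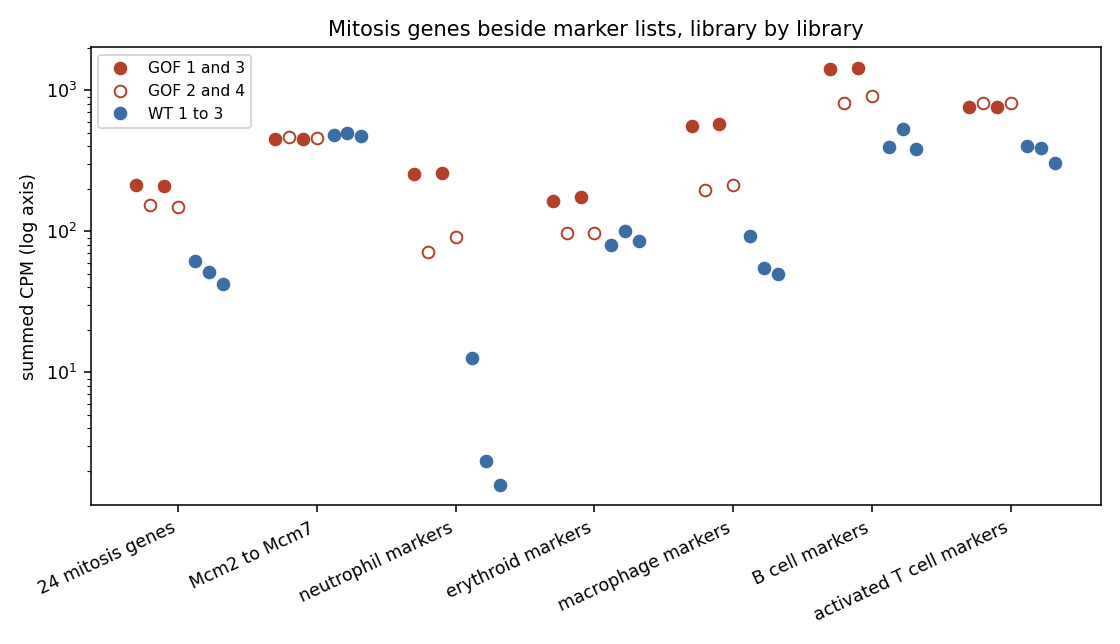
Summed CPM (log axis) per library of 24 mitosis genes, Mcm2 to Mcm7 and 5 marker lists, GOF libraries left of WT in each list, with filled red points for GOF replicates 1 and 3, open red points for 2 and 4 and blue points for WT. The 24 mitosis genes leave out Stmn1 and Hmgb2, dropped after their values were seen. The neutrophil, erythroid, macrophage and B cell lists split the GOF libraries, as the mitosis genes do to a lesser extent. In the MCM and activated T cell lists GOF replicates 1 and 3 lie slightly below 2 and 4.

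Further genes of both phases, listed by role, were followed in the same fit. Of 45 further S phase genes 44 were tested, 16 were higher and 3 lower, with a median log2 fold change of 0.41. Of 58 further mitosis genes 55 were tested, 32 were higher and 4 lower, with a median of 1.46. Over all genes 16.8% were higher and 14.5% lower. Here too 9 of the S phase and 24 of the mitosis genes would not have passed the filter in the WT libraries alone. Of the 35 other S phase genes 9 were higher and 3 lower, with a median of 0.21, and of the 31 other mitosis genes 14 were higher and 4 lower, with a median of 0.68, against 13.6% higher among all genes that passed in WT alone. Clspn, claspin, an adaptor of the replication checkpoint, was at 3.32 ± 1.14 CPM in GOF and 0.0941 ± 0.0430 CPM in WT (SD, n = 4 and 3; log2 fold change 5.03, SE 0.55, adjusted p = 0.00022), with only 4 WT counts in all. Ticrr, which starts replication at licensed origins, had 2.47 ± 0.456 CPM in GOF and 0.448 ± 0.304 CPM in WT (log2 fold change 2.45, SE 0.48, adjusted p = 0.00513). Chaf1a, a histone chaperone of the fork, had 5.77 ± 1.89 CPM in GOF and 1.31 ± 0.607 CPM in WT (log2 fold change 2.14, SE 0.43, adjusted p = 0.00536). Pole2, a subunit of DNA polymerase epsilon, fell at 17.0 ± 1.35 CPM in GOF and 32.8 ± 1.83 CPM in WT (log2 fold change -0.95, SE 0.12, adjusted p = 0.000413).

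Among the further mitosis genes, Cdc25b, the phosphatase that activates CDK1, fell and had the smallest p of the list at 55.2 ± 2.53 CPM in GOF and 160.4 ± 22.2 CPM in WT (SD, n = 4 and 3; log2 fold change -1.54, SE 0.10, adjusted p = 1.61e-05). Ckap2l, a spindle protein, was at 3.20 ± 0.516 CPM in GOF and 0.0928 ± 0.105 CPM in WT (log2 fold change 4.98, SE 0.62, adjusted p = 0.000474), again with 4 WT counts in all. Ncapg, a condensin subunit, had 3.17 ± 0.463 CPM in GOF and 0.329 ± 0.155 CPM in WT (log2 fold change 3.24, SE 0.41, adjusted p = 0.000523). Cdca8, borealin, a subunit of the complex of Aurora B and survivin, had 6.16 ± 0.435 CPM in GOF and 1.78 ± 0.334 CPM in WT (log2 fold change 1.79, SE 0.24, adjusted p = 0.00067). The other genes called lower included Lig1 of the S phase list and Pttg1, Sgol1 and Ndc80 of the mitosis list, named after their values were seen.

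The 45 genes lie on 16 chromosomes, all are protein coding, and 38 have deposited loci identical to GENCODE M21. For 9 of them, Tk1, Mcm7, Ccne2, Gins2, Prc1, Ube2c, Ccna2, Cdc20 and Nusap1, a counted gene overlaps on the opposite strand, so reads of the pair may be mixed. Spread between libraries was wider for the mitosis genes, whose coefficient of variation had a median of 22.9% in GOF and 39.8% in WT, against 8.35% in GOF and 16.1% in WT for the S phase genes. Counting error is part of this spread at low levels.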

How the data were processed

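Total RNA libraries of 7 mice were sequenced as read pairs, per the labels' protocols. What the authors deposited is a single table, which for each gene gives a count and an FPKM value per library; FPKM equals the count per kilobase of a fixed length and per 1000000 counts, as checked on the values. Per the submitters' processing notes the tools were HISAT2 2.0.4, Cufflinks 2.1.1 and Cuffdiff on build mm10; how reads were counted, and whether by strand, is not stated there. Groups came from the sample titles.

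Counts of all 34745 genes were filtered with filterByExpr (minimum count 10), scaled by TMM and tested in edgeR 4.0.16 (R 4.3.3) with a quasi-likelihood fit of GOF against WT, with Benjamini-Hochberg adjustment over the 12668 genes kept. The script was tested on simulated data. CPM was computed from the deposited counts, and the SE from the fold change and the F statistic. A group with 0 counts was set at 3 counts per library, which covers counting error only. DESeq2 1.42.0, limma 3.58.1 (also on log2(FPKM + 1)), other scalings, no filter, a replicate block and libraries left out were alternatives.

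The members and lists were chosen with earlier results of these data known. Values per library are given for the 10 members with the smallest p in each set and for Mki67, Pcna, Mcm2, Top2a and Ccnb1. Foxm1 was added to these after its values were seen. Of each further list up to 4 genes past the threshold are named. No pair of libraries agreed within sampling noise (chi-square per degree of freedom 12.0 to 41.1 within groups). Sequences are RefSeq promoters. Some list members are not reported here by name.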

Additional observations from a re-analysis of the deposited data

Results flagged for a closer look

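In 3 of the 45 genes 1 GOF library stood apart from the other 3 by more than Dixon's 95% critical value; chance flags about 1 in 20 groups. Tk1 was at 6.44 CPM in GOF replicate 3, against 3.67 to 3.84 CPM in the other GOF libraries. Mcm3 was at 63.0 CPM in GOF replicate 4, against 61.1 to 61.2 CPM in the others, a small gap in a narrow range. Tyms was at 4.82 CPM in GOF replicate 4, against 5.75 to 5.92 CPM in the others. The call of Tk1 as higher was kept in all 16 alternatives that tested it, while Mcm3 and Tyms were not called.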

How the results depend on the processing

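Of the 30 called members 19 kept their call in every alternative that tested them, 11 lost it in at least 1 (Aurka, Aurkb, Bub1b, Ccnb1, Ccnb2, Cdc20, Cdt1, Hmgb2, Nusap1, Plk1 and Rrm1), and 0 changed direction. Without GOF replicates 1 and 3, 12 mitosis genes were higher, 1 S phase gene was lower, 5 further S phase genes were higher and 1 lower, 15 further mitosis genes were higher, and 1074 genes in all were higher and 1050 lower. A mean of at least 5 CPM was also required, a limit chosen after seeing the data. Of the members 12 were then higher, 6 of 11 mitosis genes and 6 of 13 S phase genes, so the sets differed little. Over all genes 1575 of 9728 were higher in that fit. Ccna2, 1 of the members, passed the filter on low counts only through its GOF levels. Of the further genes left, 6 of 29 S phase and 12 of 20 mitosis genes were higher. The mitosis count called lower was 0 with library totals, quantile normalization, limma on FPKM and without GOF replicates 2 and 4, and 0 to 1 when 1 library was left out. Quantile normalization gave 10 further S phase genes higher. The median of the mitosis genes was 1.90 with quantile normalization, 0.58 in limma on log2(FPKM + 1), a scale that understates low genes, 1.86 without GOF replicates 1 and 3, 2.51 without 2 and 4 and 1.11 at 5 CPM or more. That of the S phase genes was 0.54 without GOF replicates 2 and 4, and 0.29 to 0.58 with 1 library left out, the last without WT replicate 1. Scaling by totals called 2527 genes higher and 1428 lower, and limma on FPKM 2598 and 1390, against 2130 and 1838 with TMM.

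Only members that were not called changed sign. Gins2 was at -0.23 with quantile normalization and -0.17 without GOF replicates 1 and 3. Mybl2 was at -0.16 and -0.037 in these fits. Mcm2 was at 0.031 with library totals, 0.057 with quantile normalization, 0.027 in limma on FPKM and 0.015 without GOF replicates 1 and 3. Without GOF replicates 2 and 4, Mcm4 was at -0.034 and Pcna at -0.062. With 1 library left out, Mcm4 ranged over -0.065 to 0.13, Pcna over -0.046 to 0.092 and Foxm1 over -1.20 to 0.0024. Apart from fits with fewer libraries or genes, the cause of these changes was not tested.

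The replicate numbers gave no sign of a pairing: deviations of same-numbered libraries had correlations of 0.03, 0.09 and -0.07. Those of libraries with unlike numbers ran from -0.15 to 0.11, and so few correlations cannot exclude a pairing. With the replicate block 1646 genes were higher and 1549 lower, 19 mitosis and 6 S phase genes were higher, Pcna was at -0.016, and Aurka and Rrm1 were no longer called. Counts of 0 to about 10 in WT limit the size of the fold changes of Bub1, Tk1, Aurkb and Cenpf, and splice forms, alleles and single cells are not resolved.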

Other observations

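The order of levels by FPKM put Pcna, Cdt1 and the MCM genes near the top in both groups, with Hmgb2 at rank 3. Other replication genes were near the bottom, with Ccne2, Cdc6 and Tk1 at ranks 44, 43 and 34 in GOF and 32, 35 and 43 in WT. Pcna ranked 1 of 45 in GOF and 2 in WT, at 33.2 FPKM in GOF and 31.2 FPKM in WT, and Cdt1 ranked 4 in GOF and 1 in WT, at 22.6 FPKM in GOF and 32.6 FPKM in WT. Mcm4 was at 27.0 FPKM in GOF and 24.9 FPKM in WT and Hmgb2, the most abundant mitosis gene, at 24.3 FPKM in GOF and 30.9 FPKM in WT. E2f2 ranked 7 in GOF and 13 in WT, at 13.8 FPKM in GOF and 2.81 FPKM in WT. Top2a ranked 17 in GOF and 27 in WT, at 3.28 FPKM in GOF and 0.378 FPKM in WT, and Mki67 19 in GOF and 30 in WT, at 2.75 FPKM in GOF and 0.264 FPKM in WT. FPKM rests on the length behind the deposited values, which was not checked against the isoforms these cells use.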
